A study of Arabidopsis thaliana with 18 samples.

Results

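Whole seedlings of the Arabidopsis thaliana mutant prt6-1 were compared with wild-type Col-0 seedlings that had been kept in air, on 4 of the 18 ATH1 expression arrays of the study. The members were taken from the sample titles alone: 2 arrays of prt6-1 in air and 2 of Col-0 in air. Seedlings of both genotypes were grown for 7 d on plates with sucrose in long days, and were then held in air for 2 h in dim light from the end of the light period, as the controls of a hypoxia treatment. The rest of the study holds ate1 ate2 seedlings in air, seedlings of all 3 genotypes after 2 h in argon (hypoxia), with 2 arrays a group, and prt6-1 and Col-0 seeds imbibed for 24 h, with 3 arrays a group. The series' design text calls the replicates independent biological experiments, and the small number of arrays is what limits precision. Each genotype was represented by 1 line, so that an effect of the named mutation cannot be told apart from any other difference between the lines.

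PRT6 is an E3 ubiquitin ligase of the N-end rule pathway, which degrades proteins according to their N-terminal residue. ATE1 and ATE2 are arginyl transferases that act before it, attaching arginine to acidic N termini. Among the substrates are the group VII ethylene response factors, which carry an N-terminal cysteine whose oxidation marks them for this branch, so that they are broken down in air and accumulate when oxygen is short. The probe annotation used names no probe set for PRT6, ATE1 or ATE2, so that the transcripts of these genes are not analysed here and the genotype labels have no check from the targeted gene.

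Values are log2 signals made by RMA, so that a difference of 1 is a 2-fold change. The 4 arrays had medians of 6.78 to 6.81, the 2 prt6-1 arrays correlated at r = 0.997 and the 2 Col-0 arrays at 0.996 across probe sets, and arrays of different genotype correlated at 0.990 to 0.992. Replicates differed by a median of 0.12 log2 units in prt6-1 and 0.13 in Col-0. The seedling label was checked on the 11 measured nuclear photosynthesis genes, whose median signal was 13.13 and 13.21 on the prt6-1 arrays and 13.34 and 13.28 on the Col-0 arrays, and on 3 root markers (EXPA7, EXPA18 and PYK10), with medians of 8.41 and 8.09 in prt6-1 and 8.03 and 8.20 in Col-0. Late embryogenesis genes, which mark seeds, had medians of 4.72 and 4.64 in prt6-1 and 5.38 and 5.11 in Col-0. On the seed arrays their medians were 8.92 to 9.37 in prt6-1 and 9.92, 8.68 and 8.34 in Col-0, highest on Col-0 seed replicate 1.

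In air, 495 of 22746 probe sets (2.18%) were higher in prt6-1 and 448 (1.97%) were lower, by limma at an adjusted p under 0.05. Among the 13513 probe sets with exactly 1 gene, 246 (1.82%) were higher and 227 (1.68%) lower. The median size of a called rise was 0.68 log2 units, or 1.60-fold, and that of a called fall was 0.59, or 1.51-fold. At least 2-fold changes were fewer and leaned upward, with 118 rises (0.519%) and 56 falls (0.246%), and at least 4-fold changes numbered 30 rises and 5 falls. The genotypes did not overlap on any called probe set; over all probe sets both prt6-1 arrays lay above both Col-0 arrays in 20.6% and below both in 23%. The median difference over all probe sets was -0.01, and 3600 (15.8%) had p under 0.05 before adjustment. The counts depended on single arrays: the 495 rises were 302 without prt6-1 replicate 1, 241 without prt6-1 replicate 2 and 235 without Col-0 replicate 1, and the 448 falls were 235, 161 and 177 without the same arrays.

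The 3 largest rises were in genes that were also called higher in Col-0 after hypoxia. AT3G29970, which encodes a B12D-like protein, had signals of 10.83 and 10.76 in prt6-1, against 4.43 and 4.74 in Col-0. This is a 74.0-fold difference (log2 fold change 6.21, SE 0.13, limma adjusted p = 8.23e-13), and the 2 genotypes were far apart. AT4G39675 had 11.57 and 11.52 in prt6-1, against 5.46 and 5.62 in Col-0, a 64.1-fold difference. AT2G17850, which encodes a rhodanese-like sulfurtransferase, had 11.06 and 11.22 in prt6-1, against 5.55 and 6.01 in Col-0, a 41.1-fold difference. In all 3 genes both prt6-1 arrays lay far above both Col-0 arrays.

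**Figure D1:**
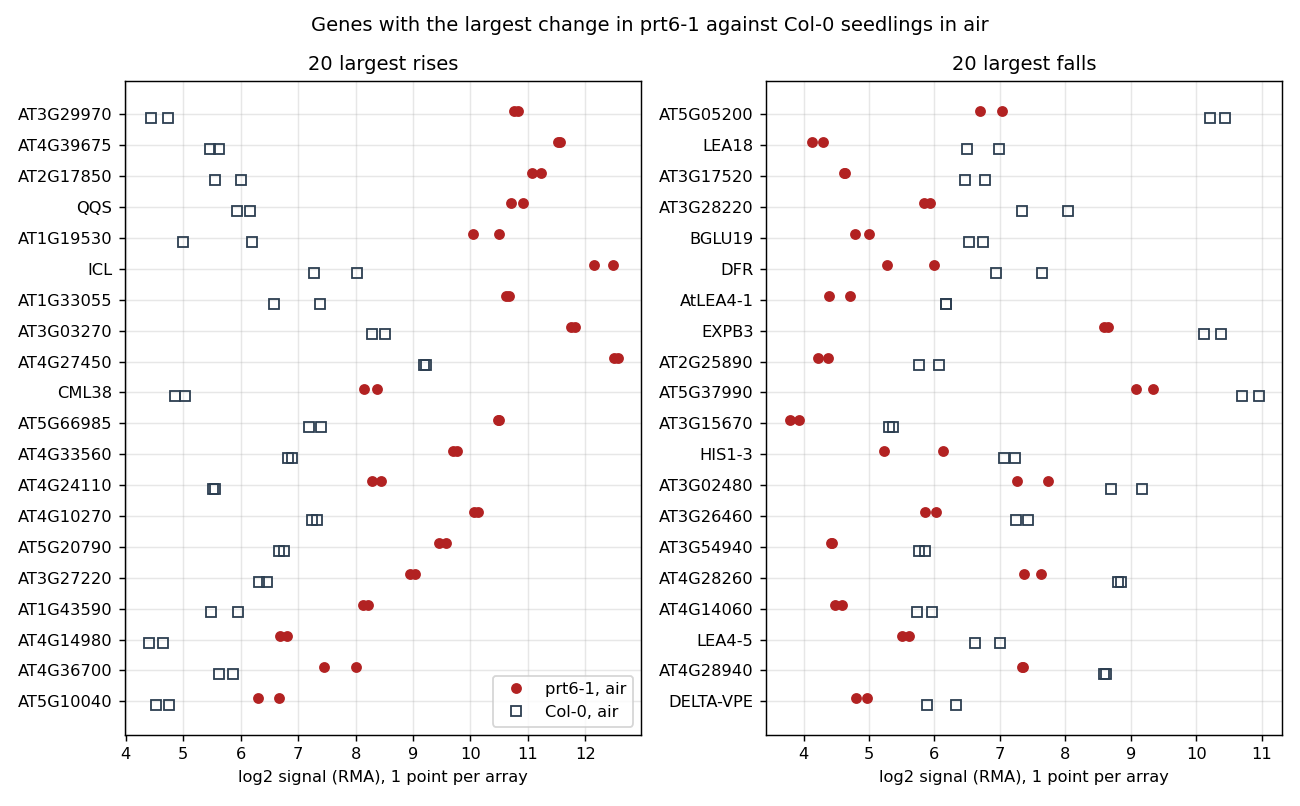
Signal on the log2 scale (x axis, 1 point per array) of the 20 named genes with the largest rise (left) and the 20 with the largest fall (right); filled circles are prt6-1 and open squares Col-0, both in air. Genes were taken from calls whose genotypes do not overlap, so that the lack of overlap is part of the selection. The rises reach 6.21 log2 units while the falls reach 3.47.

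Of the 16 genes of the oxygen sensing list, which holds the group VII factors, 2 were measured, AT3G03270 and AT3G10040. Both rose, and neither is a group VII factor, so that no group VII factor of the list was measured. AT3G03270, known as HRU1, encodes a universal stress protein linked to hydrogen peroxide production in hypoxia. It had 11.76 and 11.82 in prt6-1, against 8.28 and 8.50 in Col-0 (log2 fold change 3.40, SE 0.12, limma adjusted p = 1.05e-10). AT3G10040, known as HRA1, encodes a trihelix factor that restrains the group VII factors, and had 7.81 and 7.83 in prt6-1, against 5.90 and 6.32 in Col-0 (1.71, SE 0.13, adjusted p = 1.79e-06). CML38 encodes a calmodulin-like calcium sensor and had 8.37 and 8.15 in prt6-1, against 5.03 and 4.86 in Col-0, which is 9.98-fold. Of the 7 measured calmodulin-like genes 2 were higher, against 2.18% of all probe sets. Besides CML38 this was CML42 at 0.51, which was not called with any 1 of the 4 arrays omitted. The genotypes did not overlap in HRU1, HRA1 or CML38, as on every called probe set.

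Of 29 measured genes of a list of 52 core hypoxia-responsive genes, 20 rose in aerobic prt6-1 and 0 fell, with a median log2 difference of 1.50, against -0.01 over all probe sets with 1 gene and 1.82% of them higher. AT4G27450, an aluminium-induced-like protein, rose by 3.32, AT4G33560 and AT4G10270, of the wound-responsive family, by 2.87 and 2.81, and AT3G27220, a kelch repeat protein, by 2.61. The FLZ zinc finger genes AT4G17670, AT1G74940 and AT5G47060 rose by 1.50, 0.90 and 0.73. The other 9 genes lay between -0.24 and 0.40 and were not called, among them PDC2, a pyruvate decarboxylase of ethanol fermentation, at 0.27 (SE 0.13, adjusted p = 0.339). Of 4 measured fermentation and glycolysis genes, AT4G17260, a lactate dehydrogenase, was called, at 0.67 (0.63 and not called without prt6-1 replicate 2). Without prt6-1 replicate 2 AT5G47060 was at 0.46 and not called, nor was it without either Col-0 array (0.70 and 0.75).

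The prt6-1 level in air was then set against the level Col-0 reached after 2 h of hypoxia, a comparison added after the values had been seen. Of the 29 core genes, 21 were lower in prt6-1 in air than in hypoxic Col-0 and 4 were higher, against 3.86% and 2.42% of all probe sets. The 4 that were higher were AT4G39675, by 2.71, AT3G03270 by 1.37, AT1G19530 by 1.25 and AT2G17850 by 1.02. At the other end, AT5G10040 had 6.67 and 6.31 in prt6-1 in air, against 10.58 and 10.45 in hypoxic Col-0 and 4.52 and 4.75 in Col-0 in air, and lay 4.03 log2 units under the hypoxic level. HRA1 likewise stayed 3.27 under it, and AT3G23170, at 6.67 and 6.44 in prt6-1 in air, stayed 3.38 under it. AT4G27450 differed by 0.09 (SE 0.11) from the hypoxic Col-0 level. Measured this way, the prt6-1 level in air ranged from above to far below the hypoxic wild-type level, gene by gene.

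**Figure D2:**
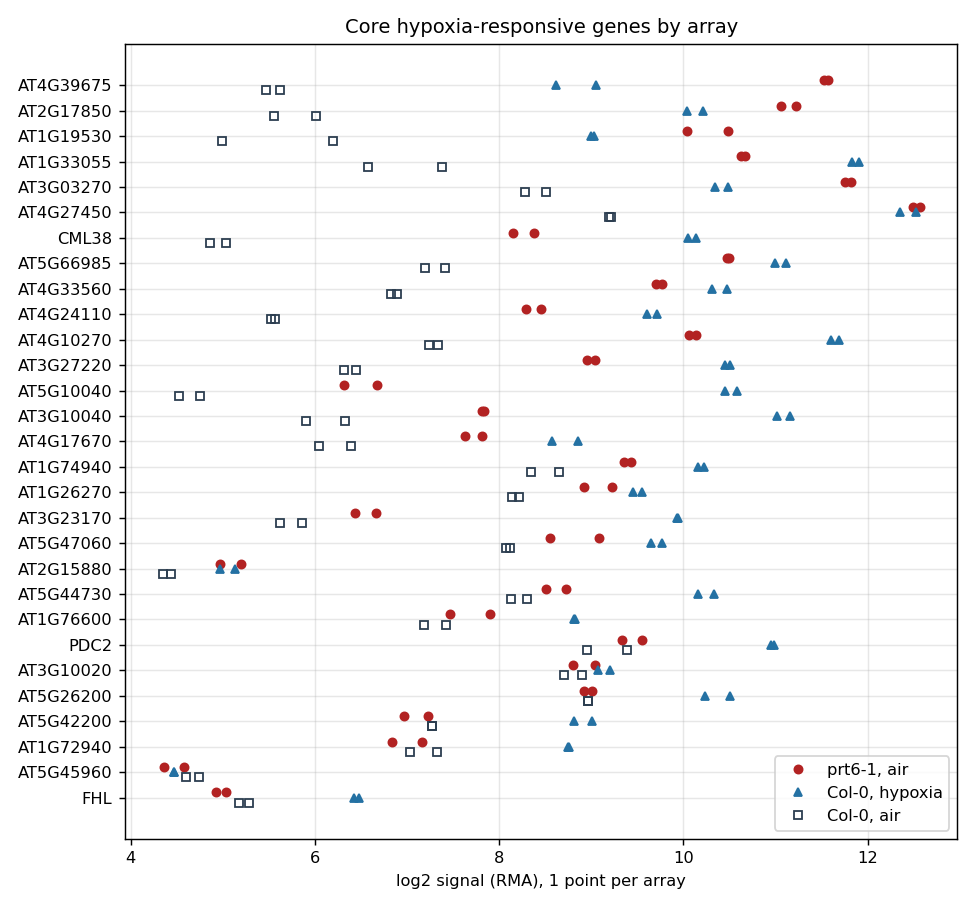
Signal on the log2 scale (x axis, 1 point per array) of the 29 measured core hypoxia-responsive genes, ordered by their difference in air; circles are prt6-1 in air, triangles Col-0 under hypoxia and open squares Col-0 in air. In the top rows prt6-1 in air reaches or passes hypoxic Col-0, and in the lowest rows it lies beside Col-0 in air.

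Some of the large rises were in genes not called between hypoxic and aerobic Col-0, a comparison that shares the Col-0 air arrays and called 2.1% of probe sets. ICL, isocitrate lyase, is the entry enzyme of the glyoxylate cycle that turns seed oil into sugar. It had 12.48 and 12.16 in prt6-1, against 7.27 and 8.02 in Col-0, which is 25.5-fold (4.67, SE 0.20, adjusted p = 1.08e-09). Its difference between hypoxic and aerobic Col-0 was 0.44 and was not called. Other measured genes of lipid use were near 0: AIM1, of fatty acid oxidation, was at 0.15, and the lipases SDP1 and SDP1-LIKE at -0.09 and 0.02, none called. PPDK, of the same list, was called at 0.52, but not without prt6-1 replicate 1 (0.40), Col-0 replicate 1 (0.50) or Col-0 replicate 2 (0.55). QQS is an orphan gene with an effect on leaf starch. It had 10.71 and 10.92 in prt6-1, against 5.94 and 6.16 in Col-0, which is 27.2-fold. Of the other 5 measured starch genes APL3 was called, at 0.47, a call that each of the 4 single-array omissions removed (0.46 to 0.49).

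GH3.3, which conjugates auxin to amino acids, had 7.78 and 7.81 in prt6-1, against 5.87 and 6.22 in Col-0 (1.75, SE 0.15, adjusted p = 6.04e-06). Its relative WES1 was at 0.52 and lost its call without prt6-1 replicate 1 (0.29), Col-0 replicate 1 (0.55) or Col-0 replicate 2 (0.49). ARL, an ARGOS-like gene of organ growth, had 9.01 and 9.28 in prt6-1, against 7.44 and 7.89 in Col-0 (1.48, SE 0.15). AT5G20790, the only measured gene of the phosphate starvation list, had 9.58 and 9.45 in prt6-1, against 6.67 and 6.75 in Col-0 (2.80, SE 0.10, adjusted p = 1.24e-10). All 4 genes had genotypes that did not overlap, as had every called probe set. They were taken from gene lists, and not by their call between hypoxic and aerobic Col-0. In that comparison AT5G20790 was called higher under hypoxia, by 1.97, and GH3.3 was at -0.51 and not called.

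Some of the next largest risers with no call in Col-0 under hypoxia were chosen after their values had been seen, from 2 comparisons that share the Col-0 air arrays. Not described further are AT1G65500 (1.32, and 1.10 without prt6-1 replicate 2) and AT3G26770 (1.23). AT4G16260, a beta-1,3-glucanase, had 9.72 and 10.16 in prt6-1, against 8.57 and 8.40 in Col-0 (1.46, SE 0.16). AT2G19970, a PR-1-like CAP protein, rose by 1.41, the pectin methylesterase gene ATPMEPCRB by 1.41, and the pectin methylesterase inhibitor genes AT1G62770 and AT5G62360 by 1.35 and 1.30. Each kept its call when any 1 of the 4 arrays was left out. AT4G12490 and AT4G22470, of the lipid transfer protein family, were at 1.52 and 1.25, and lost their calls without prt6-1 replicate 2 (1.09 and 0.87) or Col-0 replicate 2 (1.13 and 0.94).

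Class III peroxidases build and modify cell walls and handle hydrogen peroxide. This list was also chosen after values had been seen, and gets no test as a list. Of 55 measured members 11 were higher in prt6-1 and 1 was lower, against 2.18% and 1.97% of all probe sets, with a median of 0.10, and 36 of the 55 had a positive difference. Prx37 had 7.66 and 8.25 in prt6-1, against 7.02 and 6.35 in Col-0 (1.27, SE 0.21, adjusted p = 0.00236). AT1G44970 was at 1.21 and AT4G11290, at 8.95 and 9.03 in prt6-1 against 7.97 and 7.88 in Col-0, at 1.07. AT4G36430 was at 1.05 and AT1G49570 at 0.93, and both lost their calls without prt6-1 replicate 2 (0.59 and 0.77), the first also without Col-0 replicate 2 (0.90) and the second without Col-0 replicate 1 (0.70). The 1 that was lower, AT2G41480, was at -0.66 and kept its call only when prt6-1 replicate 2 was the array left out (-0.41, -0.64 and -0.68 without the others). The 11 rises were 6 without prt6-1 replicate 2. The 3 root markers had 0 calls, at 0.03 to 0.37, with summed linear signals of 15810 and 15930 in prt6-1 and 15602 and 15332 in Col-0; their part in the peroxidase values was not tested.

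Of 9 measured xyloglucan endotransglucosylase/hydrolases, which cut and rejoin wall xyloglucan, 2 were higher, against 2.18% of all probe sets. XTH33 had 7.79 and 7.75 in prt6-1, against 6.71 and 6.69 in Col-0 (1.07, SE 0.13), and XTH18 had 9.19 and 9.25 in prt6-1, against 8.26 and 8.24 in Col-0 (0.97, SE 0.16). Expansins, which loosen walls, went both ways among 16 measured, with 2 higher and 2 lower, against 2.18% and 1.97% of all probe sets. EXPB3 was the clear case, with 8.59 and 8.66 in prt6-1, against 10.39 and 10.13 in Col-0 (fell by 1.63, SE 0.12, adjusted p = 1.15e-06). The calls of EXPA9 (0.44), EXPB2 (0.40) and EXPA16 (-0.47) were each lost without any 1 of the 4 arrays, with ranges of 0.38 to 0.51, 0.30 to 0.50 and -0.60 to -0.35.

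The largest fall was that of AT5G05200, a kinase of the ABC1 family. It had 6.70 and 7.03 in prt6-1, against 10.45 and 10.21 in Col-0, and was thus 11.1-fold lower (fell by 3.47, SE 0.12, adjusted p = 1.07e-10). The next largest fall of a named gene was 2.53.

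Seed maturation genes were also among the falls. Late embryogenesis abundant proteins protect drying seeds, and of 34 measured genes 7 were lower in prt6-1 and none was higher, against 1.97% of all probe sets lower. The median over the 34 was -0.14. It was 0.01 over the members that remained with the dimmest 33.3% of probe sets left out, which is a change of members and not of values. It was -0.06 without Col-0 replicate 1 and -0.25 without Col-0 replicate 2. LEA18 had 4.29 and 4.13 in prt6-1, against 6.50 and 6.98 in Col-0, and was 5.77-fold lower (fell by 2.53, SE 0.43, adjusted p = 0.00307). AT3G17520 had 4.64 and 4.61 in prt6-1, against 6.46 and 6.77 in Col-0 (fell by 1.99, SE 0.29). AtLEA4-1 fell by 1.64, AT3G15670 by 1.48 and AT3G02480 by 1.44. All 5 were separated by genotype, as was every called probe set, while most of the 27 uncalled members lay near 0, from -0.61 to 0.27. LEA4-5 and AT4G21020 were at -1.25 and -0.85, and both lost their calls without prt6-1 replicate 2 (-1.19 and -0.84) or Col-0 replicate 2 (-1.06 and -0.65). With the dimmest 33.3% of probe sets left out, 4 of the list were called, namely AT3G17520, AT3G02480 and LEA4-5 of the 7 and COR15A. The last is not called with all probe sets kept (-0.56). LEA18, AtLEA4-1, AT3G15670 and AT4G21020 were removed by this filter, and so were not tested in that run. With all 18 arrays in one fit AT3G15670 and AT4G21020 were not called (adjusted p = 0.0564 and 0.0779). The prt6-1 values of LEA18 and AT3G17520 lie in the low part of the range of the arrays, whose lowest values were 2.96 to 3.08. Signal over background is not known here. In whole seedlings, fewer cells of a type and less RNA per cell cannot be told apart.

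Other seed genes fell with them. AT2G25890, an oleosin that coats oil bodies, had 4.37 and 4.22 in prt6-1, against 5.77 and 6.06 in Col-0 (fell by 1.62, SE 0.19, adjusted p = 0.000127). AT2G28490, a cupin of the storage protein family, fell by 1.06. Neither was called with all 18 arrays in one fit (adjusted p = 0.141 and 0.556). Both are among the dimmest 33.3% of probe sets, and so were not tested in the run that left these out. Another cupin, AT4G36700, went the other way, with 7.45 and 8.01 in prt6-1, against 5.62 and 5.87 in Col-0 (1.98, SE 0.28). The remaining 6 of 9 measured storage and oil body genes, among them PAP85 at 0.01 and OLEO3 at -0.18, were not called. Among further falls, DELTA-VPE, a vacuolar processing enzyme of the seed coat, fell by 1.22, HIS1-3, a drought-induced linker histone, by 1.46, and AT3G54940, a papain-family protease, by 1.37. BGLU19, a beta-glucosidase, was at -1.75, a call that each of the 4 single-array omissions removed (-1.85 to -1.64).

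Anthocyanin and flavonoid genes formed a smaller set of falls. Of 7 measured 4 were lower, against 1.97% of all probe sets, and none was higher, with a median of -0.58. DFR, dihydroflavonol reductase, which commits flavonoids to anthocyanin, had 5.27 and 6.0 in prt6-1, against 7.65 and 6.94 in Col-0 (fell by 1.66, SE 0.23, adjusted p = 0.000714). The genotypes did not overlap, but each differed by over 0.7 log2 units between its own arrays. The glycosyltransferase genes AT4G14090, UF3GT and UGT78D1 were at -0.85, -0.77 and -0.58. Without Col-0 replicate 1 these 3 lost their calls (-0.59, -0.42 and -0.47), which left 1 gene of the 7, and without prt6-1 replicate 1 UF3GT (-0.84) and UGT78D1 (-0.45) lost theirs, which left 2. UF3GT also lost its call without prt6-1 replicate 2 (-0.69).

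Genes for photosynthesis in the nucleus changed little, with a median of -0.06. Of 11 measured, 1 was higher and 1 lower, against 2.18% and 1.97% of all probe sets. The 2 were relatives: LHCB4.3 was at 0.70 and LHCB4.2 at -0.60, both antenna proteins of photosystem II, and their calls were lost without prt6-1 replicate 2 (0.57 and -0.54), the second also without Col-0 replicate 2 (-0.56). Of 69 transcripts of the plastid genome 7 were called lower, against 1.97% of all probe sets. These transcripts stood lower, with 66 of 69 below 0 and a median of -0.38. This rested on Col-0 replicate 1: their median signal was 9.78 and 9.69 on the prt6-1 arrays, against 10.44 and 9.81 on the Col-0 arrays. Without Col-0 replicate 1 the median difference was -0.12 and 0 were called, without prt6-1 replicate 1 also 0, without prt6-1 replicate 2 1, and without Col-0 replicate 2 24.

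A list of mitosis genes, chosen after values had been seen and not tested as a list, had 3 of 11 measured lower, against 1.97% of all probe sets, none higher and a median of -0.37. 3xHMG-box2, a chromosomal protein of dividing cells, was at -0.61, AUR2, an aurora kinase, at -0.46 and Haspin, a histone kinase, at -0.38. Of these, AUR2 and Haspin were not called with any 1 of the 4 arrays omitted (-0.50 to -0.42 and -0.48 to -0.29), and 3xHMG-box2 without prt6-1 replicate 1 (-0.49) or Col-0 replicate 1 (-0.46). The summed linear signal of the 11 genes was 1378 and 1473 in prt6-1, against 2036 and 1811 in Col-0; single probe sets were separated this way in 23% of all cases.

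**Figure D3:**
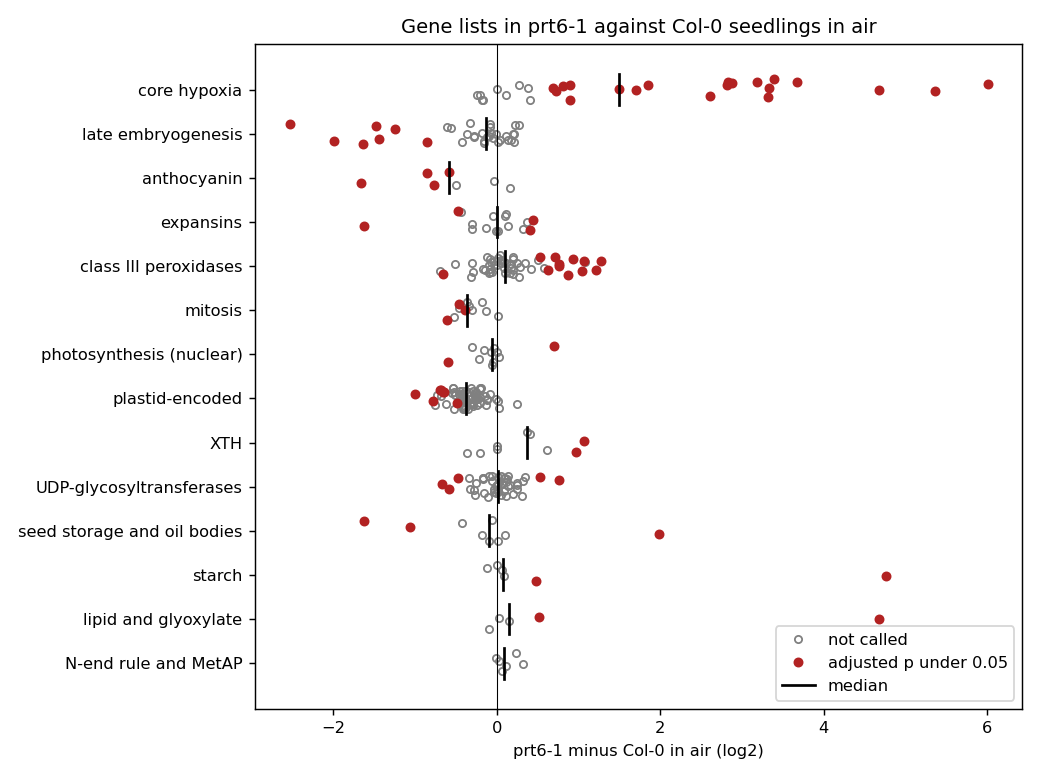
Log2 difference of prt6-1 minus Col-0 in air (x axis) for each measured gene of 14 lists; filled points were called at an adjusted p under 0.05, open points were not, and bars are list medians. The core hypoxia list has its median at 1.50, while the late embryogenesis list has 7 genes far to the left and the other 27 around 0.

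Most other lists showed few calls or none, beside 2.18% of all probe sets higher and 1.97% lower. The 6 measured genes of the N-end rule pathway and its methionine aminopeptidases had 0 calls (0 of 6, limma), the largest difference being that of MAP1C at 0.31 (SE 0.11, adjusted p = 0.14). No gene was called among 14 glutathione transferases, 7 heat shock, 5 defence and oxidative stress, 4 gibberellin, 4 glucosinolate, 3 iron, 2 carbon starvation, 2 unfolded protein response genes and the clock gene GI. Of 47 UDP-glycosyltransferases 2 were higher and 3 lower. The 3 were 0 without Col-0 replicate 1, 1 without prt6-1 replicate 1 or Col-0 replicate 2 and 2 without prt6-1 replicate 2, and the 2 were 1 without any 1 of the arrays but Col-0 replicate 2. Of 26 cytochromes P450 CYP71B36 was higher (0.62), and of 6 WRKY factors WRKY47 was higher (0.48), a call absent with any 1 of the 4 arrays omitted (0.46 to 0.51). CYP71B36 lost its call without prt6-1 replicate 2 or Col-0 replicate 2 (0.55 each). Of 2 measured sulfur deficiency genes both were higher: BGLU28 at 0.77 (0.68 and not called without prt6-1 replicate 1) and AT1G04770 at 0.48 (not called without prt6-1 replicate 2 or either Col-0 array, at 0.41 to 0.51).

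The same genotypes under hypoxia gave a second measurement from separate arrays, although the spread in the fit was estimated from all 12 seedling arrays. Under hypoxia prt6-1 exceeded Col-0 in 353 probe sets (1.55%) and lay below it in 827 (3.64%). Of the rises in air, 204 were also higher under hypoxia, which is 41.2% of the air list and 57.8% of the hypoxia list, and of the falls in air 256 were also lower, 57.1% of the air list and 31.0% of the hypoxia list. A single probe set was higher in air and lower under hypoxia. Across all 22746 probe sets the differences in air and under hypoxia correlated at r = 0.585, as a description only. The 1180 hypoxia calls were 612 and 413 without prt6-1 hypoxia replicate 1 or 2 and 540 and 392 without Col-0 hypoxia replicate 1 or 2. With any 1 of the 8 arrays left out the shared rises numbered 105 to 183 (24.0% to 59.2% of the air list), and the lowest counts, 105 to 121, came without 1 of the 4 hypoxia arrays. The shared falls numbered 113 to 189 (32.0% to 85.3%), with the fewest without prt6-1 air replicate 2 and 166 or fewer without any 1 of the 8 arrays other than Col-0 air replicate 2.

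The core hypoxia genes differed between the conditions, and 15 of the 29 had a called negative interaction, as did 38 of all probe sets (0.167%), meaning that prt6-1 exceeded Col-0 by less under hypoxia. AT1G33055 had an excess of 0.24 under hypoxia and of 3.67 in air, and AT4G10270 of 0.31 under hypoxia and of 2.81 in air. Of the 34 late embryogenesis genes 10 were lower in prt6-1 under hypoxia, LEA18 by 3.07 and AT3G17520 by 2.36, and none of the 34 had a called interaction. ICL (4.36 under hypoxia, 4.67 in air), QQS (5.13 and 4.76) and AT5G05200 (-3.04 and -3.47) had no called interaction either. Of the 55 peroxidases, 4 were higher under hypoxia, among them AT4G11290 at 0.76 and AT2G18980 at 0.69, and 5 were lower.

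**Figure D4:**
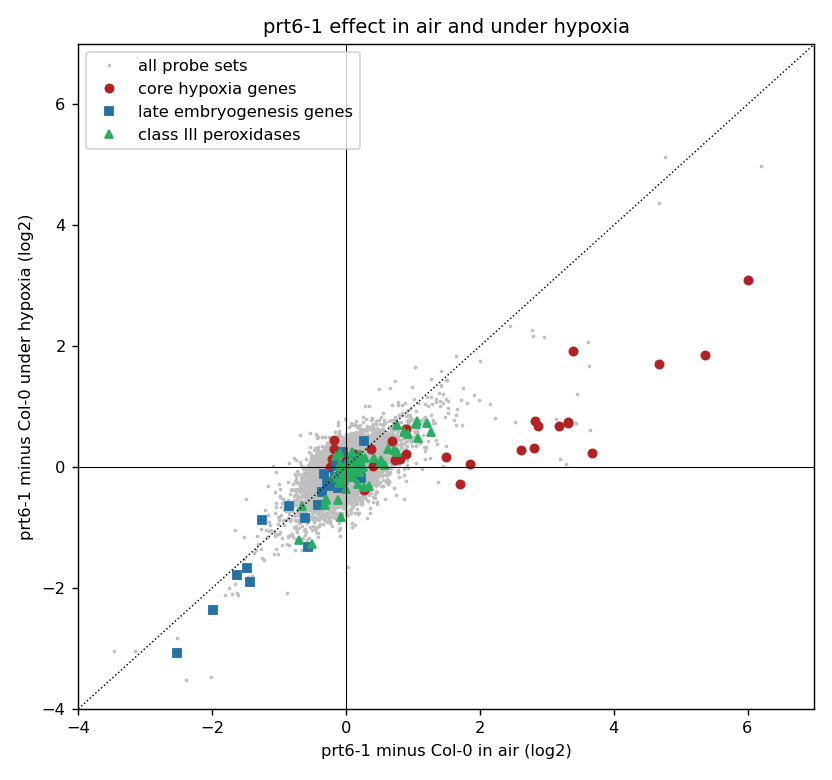
Log2 difference of prt6-1 minus Col-0 under hypoxia (y axis) against the same difference in air (x axis), from separate arrays; each point is a probe set, with core hypoxia genes, late embryogenesis genes and peroxidases marked and a dotted line where both are equal. The core hypoxia genes with the largest rises in air lie far below the line, while late embryogenesis genes with large falls lie near it at the lower left.

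In imbibed seeds, fitted apart, prt6-1 exceeded Col-0 in 499 probe sets (2.19%) and lay below it in 435 (1.91%). The air and seed lists shared 85 rises, which is 17.2% of the air list and 17.0% of the seed list, and 21 falls, 4.69% and 4.83% of these lists. In opposite directions, 23 of the air rises were lower in seeds and 12 of the air falls were higher. Across probe sets the differences correlated at r = 0.12, as a description only. The 934 seed calls were 300, 331 and 359 without prt6-1 seed replicate 1, 2 or 3, 452 and 354 without Col-0 seed replicate 2 or 3, and 1554 without Col-0 seed replicate 1. With any 1 of the 10 arrays left out the shared rises were 56 to 94 and the shared falls 5 to 30. The fewest of both came without prt6-1 air replicate 2, at 56 and 5, and the most without Col-0 seed replicate 1, at 94 and 30. The shared falls were 12 or fewer without any 1 of the 10 arrays except Col-0 air replicate 2 (14) and Col-0 seed replicate 1.

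Of the 29 core genes 21 were higher in prt6-1 seeds and none was lower, AT4G39675 by 5.84 and CML38 by 3.75, whereas of the 34 late embryogenesis genes 2 were lower in seeds, and LEA18 was at 0.03. ICL was at 0.30 in seeds (adjusted p = 0.145), where its signal was 14.59 to 14.66 in prt6-1 and 14.28 to 14.41 in Col-0. Called the same way in all 3 settings were 45 probe sets above Col-0 and 8 below it, that is in air, under hypoxia and in seeds. Among the named ones were QQS, AT4G39675, AT3G29970, AT1G43590 and AT2G47560, a RING finger protein, on the high side. On the low side were AT5G05200 and DELTA-VPE, at -1.70 and -1.82 in seeds.

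The ate1 ate2 double mutant, which lacks the step before PRT6, allowed a direct comparison in air. Between ate1 ate2 and prt6-1, 29 probe sets (0.127%) were called, 15 higher and 14 lower in ate1 ate2, and 1815 (7.98%) had p under 0.05 before adjustment. The 29 were 15 without prt6-1 replicate 1, 12 without prt6-1 replicate 2 and 92 without ate1 ate2 replicate 2. No core hypoxia gene was among them. AT3G29970, which is not in that list, was at 11.26 and 11.59 in ate1 ate2, 10.83 and 10.76 in prt6-1 and 4.43 and 4.74 in Col-0, and the difference between the mutants, 0.63, was not called. For ICL the values were 12.99 and 12.94 in ate1 ate2, 12.48 and 12.16 in prt6-1 and 7.27 and 8.02 in Col-0. Both mutants are set here against the same 2 Col-0 arrays, so that their differences from Col-0 are not independent.

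Several of the large changes in prt6-1 differed between the mutants. QQS had 5.47 and 5.36 in ate1 ate2, 10.71 and 10.92 in prt6-1 and 5.94 and 6.16 in Col-0, with a difference between the mutants of -5.40 (SE 0.16, adjusted p = 9.47e-11). AT5G05200 had 10.39 and 10.39 in ate1 ate2, 6.70 and 7.03 in prt6-1 and 10.45 and 10.21 in Col-0, with a difference between the mutants of 3.53. The ate1 ate2 arrays stood beside Col-0 in AT5G05200 and a little below it in QQS, which was called lower in ate1 ate2 than in Col-0 (-0.64, limma adjusted p = 0.0372). AT1G43590, which RefSeq lists as a pseudogene, had 5.65 and 5.28 in ate1 ate2, 8.13 and 8.22 in prt6-1 and 5.49 and 5.96 in Col-0. NRPC1, the largest subunit of RNA polymerase III, was at -0.82 between ate1 ate2 and prt6-1, and EXPB3, AT4G28260 and AT1G67865 were higher in ate1 ate2 by 1.32, 1.38 and 1.04. AT5G20790 was intermediate, with 8.55 and 8.58 in ate1 ate2, 9.58 and 9.45 in prt6-1 and 6.67 and 6.75 in Col-0.

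Other genes separated ate1 ate2 from prt6-1 and were not called between prt6-1 and Col-0. COR15A, a cold-induced chloroplast protein that is also in the late embryogenesis list, had 6.81 and 6.94 in ate1 ate2, 5.65 and 5.25 in prt6-1 and 6.22 and 5.80 in Col-0. Its difference between prt6-1 and Col-0, -0.56, had an adjusted p of 0.0512, and was called under 6 of the alternatives: without prt6-1 replicate 1 (-0.76) or Col-0 replicate 2 (-0.78), after quantile normalization or median centring, without the dimmest 33.3% of probe sets, and with the replicate block. Its adjusted p ranged from 0.0172 to 0.454 over the alternatives. AT2G47780, a rubber elongation factor family protein, had 7.68 and 7.51 in ate1 ate2, 6.09 and 6.39 in prt6-1 and 5.21 and 5.90 in Col-0; without Col-0 replicate 2 its difference between prt6-1 and Col-0 was 1.03 and called, against 0.69 and not called with all arrays. ChiC, a chitinase, had 9.16 and 9.11 in ate1 ate2, 8.37 and 8.37 in prt6-1 and 8.09 and 8.43 in Col-0. No other of the 34 late embryogenesis genes was called between the mutants: LEA18 had 6.55 and 4.41 in ate1 ate2, 4.29 and 4.13 in prt6-1 and 6.50 and 6.98 in Col-0, so that 1 ate1 ate2 array lay with each of the other genotypes.

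**Figure D5:**
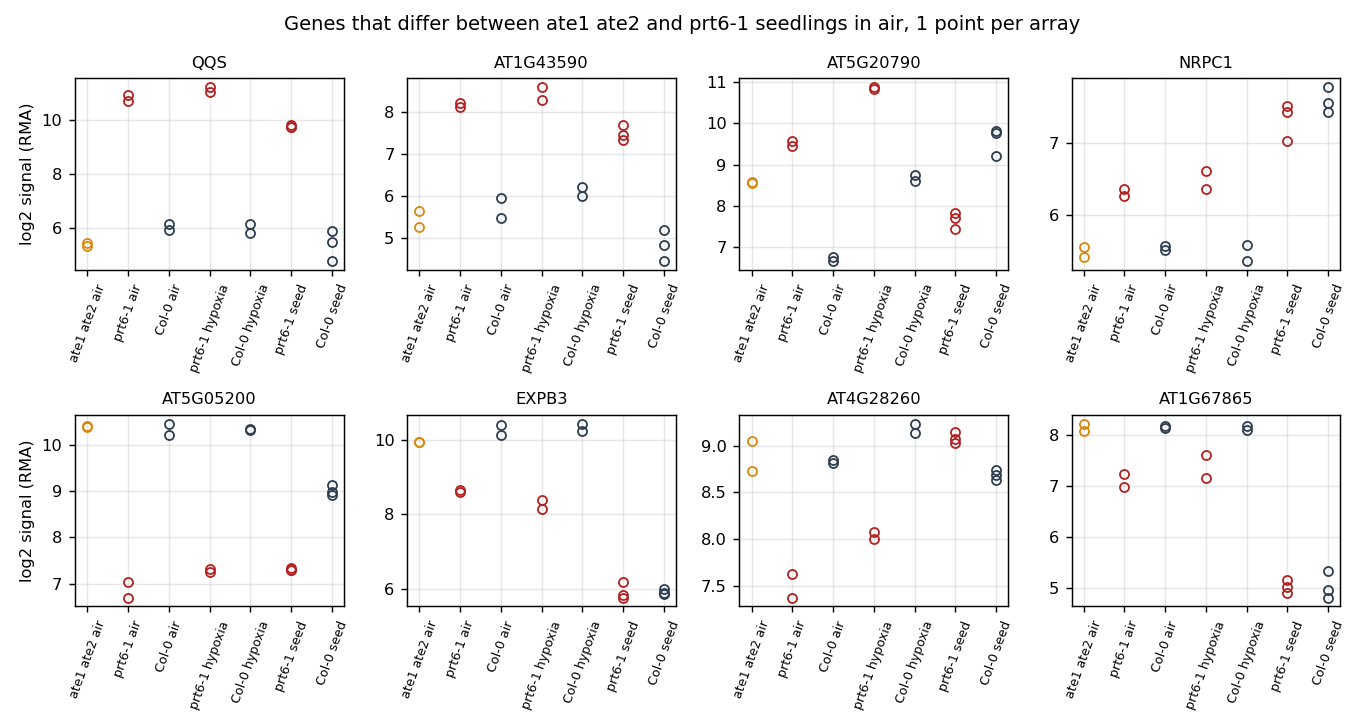
Signal on the log2 scale (y axis, 1 point per array) of 8 genes called between ate1 ate2 and prt6-1 in air, across the air, hypoxia and seed groups. QQS and AT1G43590 are high and AT5G05200 is low in every prt6-1 group. In air, ate1 ate2 stands beside Col-0 in AT1G43590 and AT5G05200 and a little below it in QQS. AT5G20790 is high in prt6-1 seedlings and low in prt6-1 seeds.

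Called genes were spread over the nuclear chromosomes, with 3.19% to 4.23% of the single-gene probe sets of each chromosome called and 3.21% on chromosome 5. Among 5909 pairs of adjacent protein-coding genes (TAIR10.1 gene order) with both measured, 22 pairs had both called, 14 of them in the same direction. The pairs named here were chosen after their values had been seen. EXPB3 and AT4G28260 are neighbours on chromosome 4, at -1.63 and -1.33 in prt6-1 against Col-0. AT1G67865 (-1.05) lies between AT1G67860 (-0.64) and AT1G67870 (-0.52) on chromosome 1, and all 3 were lower.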

How the data were processed

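Biotin-labelled cRNA of whole seedlings and seeds was hybridised to ATH1 arrays. The deposited log2 values were made by the authors with RMA in affy, per the submitters' processing notes; versions, and whether all arrays were normalised in 1 run, are not given in the sources used here. Of 22810 probe sets, 64 control sets were left out. Probe sets were named through the platform table, updated with RefSeq (TAIR10.1): 13513 have 1 gene, 503 several and 8730 none. A cell-means model over the 12 seedling arrays was fitted with limma 3.58.1 (R 4.3.3), and seeds were fitted apart; a call is a Benjamini-Hochberg adjusted p under 0.05 over all probe sets. The method was tested on simulated data. For a gene with several probe sets, the brightest was used. Named genes are the 20 largest separated single-gene calls in each direction, up to 6 called members of each list, and the largest calls between mutants, in the interaction and in all 3 settings. Additions are marked as chosen after values were seen. Members and lists were chosen with earlier results of these data known. Alternatives changed the normalisation, filter, variance prior, arrays in the fit and single arrays.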

Additional observations from a re-analysis of the deposited data

Results flagged for a closer look

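The difference between prt6-1 and Col-0 was not equal under hypoxia and in air for 38 probe sets, by the interaction term in limma. In all of them it was smaller, or more negative, under hypoxia. The interaction, hypoxia minus air on the log2 scale, was -3.50 for AT2G17850, -3.43 for AT1G33055, -2.97 for AT1G19530 and -2.90 for AT4G39675. It was -2.59 for CML38, -2.58 for AT4G27450, -2.50 for AT5G66985, -2.50 for AT4G10270, -2.34 for AT3G27220, -2.20 for AT4G33560 and -2.06 for AT4G24110. The smaller ones were -1.99 for AT3G10040, -1.81 for AT5G10040, -1.47 for AT3G03270, -1.41 for AT4G14980, -1.23 for AT3G29970 and -0.76 for AT1G04770.

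Some named genes called in air lay on opposite sides of Col-0 in seeds and in seedlings, with no overlap of genotypes in either; the difference between seeds and seedlings was not tested. Over all probe sets, the prt6-1 seed arrays all lay above the Col-0 seed arrays in 12.3% and below them in 13.5%. Of these, 613 and 699 of the 22746 probe sets were separated the opposite way in seedlings in air. Higher in prt6-1 seedlings and called lower in prt6-1 seeds were AT5G20790 (-1.94 in seeds) and AT1G62480 (-1.41), and lower in seedlings and called higher in seeds were BGLU19 (1.74) and LHCB4.2 (0.68). The others were not called in seeds. Of genes higher in prt6-1 seedlings these were APL3 (-0.68 in seeds), UGT76B1 (-0.59), AT5G64100 (-0.49), EXPA9 (-0.49), GH3.3 (-0.48), LHCB4.3 (-0.34), CML42 (-0.26) and AT4G36430 (-0.21), and of genes lower in seedlings AT4G28260 (0.40) and AT1G51400 (0.23). Of all these genes, only AT5G20790, GH3.3, AT5G64100 and AT4G28260 kept their air call when any 1 of the 4 air arrays was left out. AT1G62480 was at 0.50 in air, and not called without prt6-1 replicate 1 (0.44), prt6-1 replicate 2 (0.56) or Col-0 replicate 1 (0.41).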

How the results depend on the processing

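Counts of calls depended on the fit. With all 18 arrays in one fit 257 probe sets were higher and 170 lower in prt6-1 in air, with single-gene probe sets alone 236 and 215, and with a fold change of at least 2 also required 118 and 56. Leaving out 1 array gave 235 to 524 higher and 161 to 437 lower in air, 392 to 612 calls under hypoxia, 12 to 92 between ate1 ate2 and prt6-1, 30 to 57 for the interaction and 300 to 1554 in seeds. The replicate block gave 575 higher and 581 lower in air, 1378 under hypoxia, 34 between the mutants, 42 for the interaction and 535 in seeds. Replicate differences of same-numbered seedling arrays correlated at r = -0.234 to 0.262 between groups, over 0.1 in 7 of 15 pairs of groups. Deviations of same-numbered seed arrays from their group means correlated at -0.077 to -0.024. No sample title pairs the arrays, so that the numbers were not taken to pair the samples. The seedling correlations do not decide whether they do. Of 117 named probe sets called in air, 60 kept their call under every alternative run that tested them. This count leaves out the requirement of a fold change of at least 2. It also counts as kept probe sets that were removed with the dimmest ones and so not tested there, such as LEA18 and AtLEA4-1. Of the 117, 54 lost their call without at least 1 of the 4 arrays, and none changed direction. Omitting 1 of the 4 arrays could not reverse a direction, since the genotypes did not overlap on any called probe set. The promoter window was not run. Signal over background is unknown, which limits statements on dim probe sets.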
